A study of Mus musculus with 9 samples.

Results

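The genes described here are the nuclear-encoded genes of oxidative phosphorylation, measured by RiboSeq in LPS-stimulated macrophages without endogenous TTP, to which GFP, wild-type TTP or a mutant of TTP had been given. They were chosen by symbol alone. The rule took every name beginning with Nduf and then a, b, c, s or v, every name beginning with Uqcr, Atp5 or Cox4 to Cox8, and Cyc1, Sdha, Sdhb, Sdhc and Sdhd. It found 92 of the 16920 named genes in the table, of which 44 carry complex I names, 4 complex II, 9 complex III, 16 complex IV and 19 complex V names. Of the 92 genes, 80 encode subunits. The other 12 are 7 assembly factors of complex I (the Ndufaf genes), the supercomplex factor Cox7a2l, Atp5s and Atp5sl, which are named after the ATP synthase, and the 2 pseudogenes Atp5l-ps1 and Atp5l-ps2.

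Oxidative phosphorylation couples the transfer of electrons from NADH and succinate to oxygen with the synthesis of ATP in the inner mitochondrial membrane. Complexes I, III and IV pump protons, complex II (succinate dehydrogenase) feeds electrons in without pumping, and complex V (the ATP synthase) uses the proton gradient. Most subunits are encoded in the nucleus, translated on cytosolic ribosomes and imported, and have to join a few subunits made inside mitochondria. Activated macrophages are known to shift their metabolism from respiration towards glycolysis. TTP, encoded by Zfp36, binds AU-rich elements in the 3′ untranslated region (3′UTR) of mRNAs and recruits the deadenylation machinery.

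The cells were immortalized bone marrow-derived macrophages (BMDMs) from TTP-deficient mice, transformed with hcmyc and hRasG12V and positive for the macrophage surface proteins CD11b and F4/80. All 3 groups carried a doxycycline-inducible construct, encoding GFP alone in the control group, GFP–TTP in another, and GFP–TTP-AA, a mutant with the substitutions S52A and S178A at phosphorylated serines, in the remaining one. Every group was given doxycycline (1 μg/ml) for 6 h in all and LPS, a bacterial activator of macrophages, at 1 μg/ml for 1 h. Each had 3 libraries, numbered 1 to 3, and nothing in the labels says how far their cultures were apart. The groups were separately transduced lines, so that the construct and the line cannot be told apart. Both TTP groups were compared with the same GFP libraries.

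RiboSeq counts ribosome-protected fragments per gene, here called footprints. The deposited table does not hold observed counts but the means predicted by a model. The log2 values were the sum of a constant per library, a condition term per gene and a replicate-number term per gene, with a residual SD of 2.84e-15. The 3 values of a group therefore show how far the replicate numbers differed, and that pattern is the same in all groups. No spread that could carry a test of a condition was left, and the differences are shrunken towards 0 by the authors' model. For that reason no p-value is given, and differences are descriptions. RNA levels were not analysed here, so that more RNA and more ribosomes per RNA cannot be told apart, nor can more footprints per cell and more cells that carry them. A difference is the log2 ratio of 2 group means (geometric means of 3 libraries), and genes are counted where it was past 1.2-fold (0.26 on the log2 scale). Another count takes the genes for which all 3 values of a group lay above, or all below, the 3 values of the other group. Since the replicate-number term is shared, this in effect says only that a difference was wider than the range over replicate numbers. Each value was divided by the scaling factor of its library, the median over genes of the ratio to the mean of all 9 libraries.

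The sum of the table over genes lay between 2570290 and 12804489 in the 9 libraries, and the oxidative phosphorylation genes held 2.05% to 2.27% of it. Zfp36, which also counts footprints on the constructs, had scaled values of 439 to 501 in GFP-only macrophages, 888 to 1013 in GFP–TTP macrophages and 1456 to 1663 in GFP–TTP-AA macrophages. The 7 macrophage marker symbols stand for 6 genes, since Adgre1 and Emr1 name the same one, and all 6 were in the table. Their summed level was 85667 to 104131 in GFP-only, 68039 to 81438 in GFP–TTP and 96490.3 to 118422 in GFP–TTP-AA macrophages. Most of it was Lyz2, with group means of 64503, 46357 and 71491 in the same order. In GFP–TTP against GFP-only macrophages Emr1, Csf1r, Cd68 and Lyz2 were lower (log2 differences -0.68 to -0.12), and Itgam and Cd14 higher (0.10 and 0.11). Summed markers of B cells, T cells and fibroblasts were at most 1.11 in every library. The summed level of 2 neutrophil markers was 21.4 to 39.7, 20.3 to 37.6 and 43.7 to 81.9 in the same order of groups. Nearly all of it was S100a8, as Mpo averaged 0.125. The part of these marker differences in the results below was not tested.

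TTP recognizes the motif UAUUUAU, and few of these genes hold it. A 3′UTR was taken from the transcript with the longest coding sequence of GENCODE vM21 (GRCm38) for all 86 genes that passed the filter on low values (a mean over the libraries of at least 10). The heptamer, searched on the sense strand as TATTTAT, occurred in the 3′UTR of 5 genes (5.81%), against 27.8% of the 9846 such genes of all kinds with a 3′UTR. The 3′UTRs were also short, with a median of 168.5 nt against 964.5 nt over all genes. Per kilobase of 3′UTR the heptamer occurred 0.209 times in these genes and 0.289 times in all genes. The core ATTTA, which lies within the heptamer, was in 45.3% of them against 66.7% of all genes, but at 2.12 per kilobase against 1.84. A nonamer TTATTTATT, which contains the heptamer, was present in Ndufv2 and Sdhc only (2.33% against 7.17% of all genes). The sites of the 5 genes are shown because no other gene of the list holds the motif. Each window has 30 bases, read 5′ to 3′ on the strand of the transcript and in DNA letters, with the heptamer or the run of overlapping heptamers in capitals and the position of the first capital in the 3′UTR given in brackets.
Cox7a2 (chr9:79755436-79755465, minus strand, position 93 of 186 nt): ttggggatcaaTATTTATtgatgtgtatta
Ndufs4 (chr13:114288691-114288720, minus strand, position 54 of 968 nt): cagctgtgcacTATTTATagtccatggata
Ndufv2, upstream site (chr17:66078908-66078937, minus strand, position 568 of 856 nt): ggtaaaagcatTATTTATaaaaagaaaagt
Ndufv2, downstream site (chr17:66078860-66078889, minus strand, position 614 of 856 nt): ctttagctaTATTTATTTATtttgatacag
Sdhc (chr1:171127628-171127657, minus strand, position 2153 of 2636 nt): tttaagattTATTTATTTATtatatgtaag
Uqcrc2 (chr7:120659299-120659328, plus strand, position 206 of 420 nt): cagtcagcaagTATTTATtaaatgctttaa
The runs in Sdhc and in the downstream site of Ndufv2 hold 2 overlapping heptamers each. A match is a string in an annotated 3′UTR and not a measured binding site.

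The 5 genes with a heptamer lay on both sides of 0. The log2 difference of GFP–TTP from GFP-only macrophages was -0.02 for Cox7a2, 0.05 for Ndufs4, -0.16 for Ndufv2, -0.17 for Sdhc and 0.16 for Uqcrc2. Sdhc encodes a membrane anchor of succinate dehydrogenase that helps to bind ubiquinone. Its scaled values were 2186, 2098 and 2109 in GFP-only, 1939, 1864 and 1871 in GFP–TTP and 2164, 2058 and 2071 in GFP–TTP-AA macrophages. All 3 GFP–TTP values were below those of both other groups, which overlapped. Ndufv2, an iron-sulphur subunit in the NADH-oxidizing tip of complex I, had the widest spread over replicate numbers, with 765, 525 and 1024 in GFP-only macrophages and 682, 469 and 913 in GFP–TTP macrophages, and these overlapped.

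Of the 92 genes, 86 passed the filter, including all genes of complexes I, II and III, 12 of 16 in complex IV and 17 of 19 in complex V. The 6 that did not pass were Cox4i2, Cox6a2, Cox6b2, Cox8c and both pseudogenes. To compare levels between genes, the geometric mean over the 9 libraries was divided by the coding length in kilobases. On this scale 61 of the 86 genes (70.9%) were among the highest 10% of all genes, and all 61 were subunits. The median of all genes was 154.5 per kb.

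The level per kb differed between complexes. The median over the genes of a complex was 6778 per kb for complex IV, 2617 for complex V, 2054 for complex III, 1921 for complex II and 1572 for complex I. Over the 9 libraries these medians ranged from 5840.3 to 8150.0 for complex IV, 2172 to 3082 for complex V, 1780.0 to 2447 for complex III, 1830.1 to 2036 for complex II and 1492 to 1728 for complex I. The range of complex IV lay above and that of complex I below all others, while the ranges of complexes II and III and of III and V overlapped. Per kb of exonic length the medians were 2639.6 for complex IV, 1999.7 for V, 1776 for III, 934 for I and 925 for II, so that the place of complex I rests on the coding length. Subunits alone gave 4865 per kb of coding sequence for complex V and 1741 for complex I. Genes of complex IV are the shortest, with a median coding length of 251.25 nt, and those of complex II the longest with 661.5 nt, and the part of coding length in a level per kb was not tested.

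**Figure D1:**
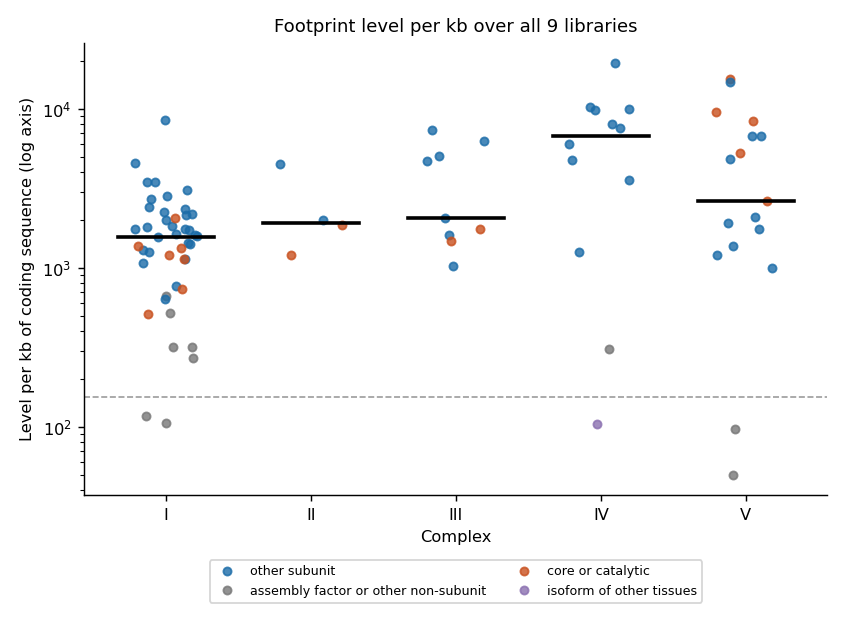
Footprint level per kb of coding sequence (log axis) of the 86 genes by complex, as geometric means over the 9 libraries. Each point is a gene, coloured by its role, bars are the medians of the complexes (1572, 1921, 2054, 6778 and 2617 per kb from I to V) and the dashed line is the median of all genes (154.5 per kb); complex IV has the highest median, and the grey and purple points of non-subunits and a tissue isoform lie below nearly all subunits.

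Complex II, the smallest, is the enzyme shared with the citric acid cycle. Its flavoprotein Sdha, which oxidizes succinate, stood at 1204 per kb, the iron-sulphur subunit Sdhb at 1855, and the membrane anchors Sdhd and Sdhc at 1986 and 4467. The 4 subunits occur in equal numbers in the complex. In complex I the highest levels per kb were those of Ndufa4 (8451), Ndufa1 (4572) and Ndufb3 (3482). Ndufa4 was first named as a complex I subunit and is now placed in complex IV. Its level per kb lay above the 4572 of Ndufa1 and within the range of complex IV, and with the longest coding sequence in place of the median one it was 6751. In complex III the highest were Uqcrq (7403), Uqcrh (6287) and Uqcr10 (5024), all small subunits, whereas the genes of the redox centres, Cyc1 and Uqcrfs1, stood at 1749 and 1473.

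In complex IV, cytochrome c oxidase, Cox6b1 stood highest at 19339.6 per kb (14505 with its longest coding sequence), followed by Cox6a1 (10230.1) and Cox4i1 (9907). Several of its subunits have isoforms that belong to other tissues. Cox4i1 had scaled values of 4436 to 5562 over the 9 libraries, and its isoform Cox4i2 0.245 to 0.254. Cox6a1 had 2843 to 4291 against 3.67 to 4.17 for the heart and muscle isoform Cox6a2. Cox6b1 had 3007 to 4532 against 0.719 to 0.789 for the testis isoform Cox6b2. Cox8a had 1753 to 2379 against 0.140 to 0.146 for Cox8c. Cox7a2 had 1788 to 2392, and the heart and muscle isoform Cox7a1, which passed the filter, 24.5 to 27.5. A fitted value below 1 is a mean from the model and says only that hardly any footprint was assigned to the gene. Ndufa4l2 and Cox8b were not analysed here.

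The genes that passed the filter without being subunits stood below nearly all subunits per kb. They lay on both sides of the median of all genes (154.5 per kb). Cox7a2l, which joins complexes III and IV in supercomplexes, stood at 306.5, the Ndufaf genes at 106 to 668, Atp5sl at 97.3 and Atp5s at 50.02. The pseudogenes Atp5l-ps1 and Atp5l-ps2 had scaled values of 1.28 to 1.43 and 0.659 to 0.692, against 252 to 377 for Atp5l, their parent gene for subunit g. Reads that match a gene and its pseudogene may have been counted for either or for neither.

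In complex V the highest levels per kb were those of Atp5e (15316), Atp5g3 (14719) and Atp5b (9571). Here the levels can be set against the known copies of a subunit. This was done for all subunits but e (Atp5k), f (Atp5j2) and g (Atp5l). The catalytic head holds 3 copies each of alpha (Atp5a1) and beta (Atp5b), and the rotor ring holds 8 copies of subunit c, which is encoded by Atp5g1, Atp5g2 and Atp5g3 with the same mature protein. Divided by copies, the level per kb was 2799.5 for alpha, 3190.3 for beta, 2617 for gamma (Atp5c1) and 2252 for c, the sum of 3 genes. The peripheral stalk subunits b (Atp5f1), OSCP (Atp5o) and d (Atp5h) stood at 1904, 1742.5 and 1376. Delta (Atp5d) at 5255, F6 (Atp5j) at 4865 and epsilon (Atp5e) at 15316 stood above them. The lowest library of epsilon (13212) was above the highest library of every other subunit that was set against copies. By level per kb alone, Atp5k and Atp5j2 (percentile 98.6 of all genes each) stood above Atp5d (98.1), and Atp5l was at 87.6. Epsilon also has the shortest coding sequence in complex V, with 156 nt. Of the level per kb of subunit c, Atp5g3 held 75.5% to 85.2% over the 9 libraries, Atp5g1 8.80% to 16.6% and Atp5g2 5.82% to 8.38%. Reads could be kept at up to 2 places, so that footprints of the near-identical mature part shared by the 3 genes make such shares uncertain.

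**Figure D2:**
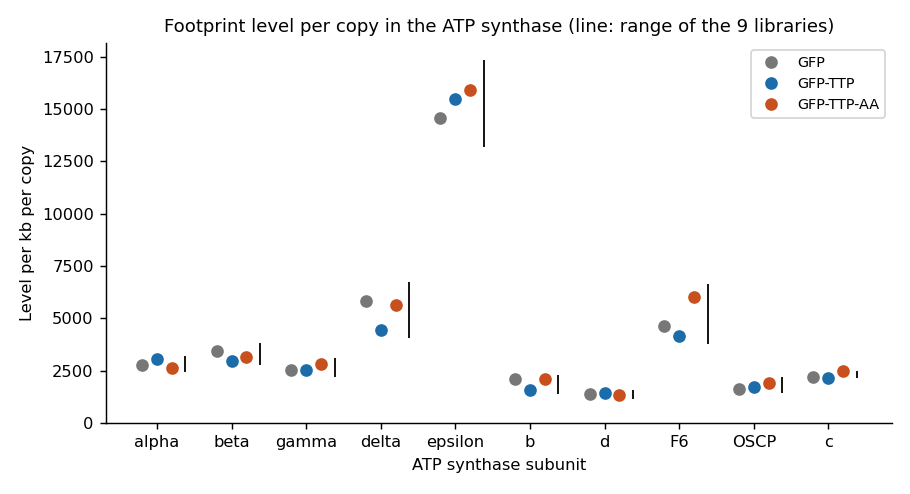
Level per kb of coding sequence divided by the copies of each subunit in the ATP synthase, by group (points, geometric means of 3 libraries) with the range of all 9 libraries (line). Alpha, beta, gamma and c lie between 2139 and 3456 in the 3 groups, whereas epsilon lies between 14577 and 15938. Subunits e, f and g are not shown.

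The spread over replicate numbers was as wide as that over groups. The range over replicate numbers had a median of 0.29 on the log2 scale in the 86 genes and 0.29 in all 10103 genes that passed the filter. The range over the 3 group means had a median of 0.23 in the 86 genes and 0.27 in all genes, and it exceeded the replicate range in 36 of the 86 genes (41.9%) against 46.5% of all genes. Complex III had the least difference between groups for its spread, with a median group range of 0.16, a median replicate range of 0.35, and in none of its 9 genes was the former larger. In complex IV the group range was larger in 7 of 12 genes and in complex V in 9 of 17.

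In GFP–TTP macrophages the oxidative phosphorylation genes as a list stood where they stood in GFP-only macrophages. The comparison sets the line given wild-type TTP beside the GFP-only line, so that construct and line cannot be told apart in it. The median log2 difference was -0.01 over the 86 genes and 0.00 over all genes. Past 1.2-fold, 7 genes (8.14%) were higher, beside 11.2% of all genes, and 12 (14.0%) were lower, beside 12.4% of all genes. The groups did not overlap for 19 genes (22.1%), beside 25.8% of all genes. By complex the medians were 0.03, -0.03, -0.05, -0.02 and -0.06 from I to V. Over the list the median was 0.02 with the median of each class of coding length subtracted, which turns its sign.

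The genes that stood farthest from GFP-only macrophages were mostly in complex I, which is also the largest. Ndufs8, an iron-sulphur subunit of its catalytic core (chr19:3908863-3912774, minus strand), had 1101, 961 and 1204 in GFP-only, 1740.1, 1521 and 1903 in GFP–TTP and 1232, 1066 and 1336 in GFP–TTP-AA macrophages. All GFP–TTP values lay above both other groups, which overlapped, and the difference from GFP-only macrophages was 0.66 (1.58-fold), the only one of the 86 in this comparison past 1.5-fold. Ndufaf7, a methyltransferase that acts during assembly of the complex, followed with 0.41, from 300.3, 335 and 301 to 399, 445 and 401. Ndufv1, which carries the flavin that takes electrons from NADH, was 0.40 higher, at 1434, 1710.5 and 1214 against 1897, 2265 and 1606, with overlap. The other 4 past 1.2-fold were Ndufaf6 (0.35), Ndufaf2 (0.32), Cox7c (0.29) and Atp5g1 (0.28), of which Atp5g1 overlapped.

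On the lower side, Ndufc1, an accessory subunit of the membrane arm (chr3:51404677-51408988, minus strand), had 565, 508 and 513 in GFP-only, 379.9, 342 and 345 in GFP–TTP and 554, 493 and 499 in GFP–TTP-AA macrophages. The difference was -0.57, and the GFP–TTP values lay below both other groups, which overlapped. Atp5d, the delta subunit of the central stalk, was -0.40 (3394, 2774 and 2701 against 2568, 2102 and 2044), and Atp5f1, the stalk subunit b, was -0.40 (1742, 1379 and 1726 against 1319.9, 1046 and 1308). Both were without overlap. Of the other 9 past 1.2-fold, Ndufaf3 (-0.33), Atp5s (-0.32), Ndufa4 (-0.29) and Cox6b1 (-0.28) did not overlap, and Ndufb4 (-0.40), Ndufb5 (-0.34), Uqcr10 (-0.32), Ndufs7 (-0.28) and Ndufa6 (-0.27) did. Uqcr10, a small membrane subunit of complex III, was the only gene of that complex past 1.2-fold, at 1129, 857 and 1245 against 906, 688 and 998.

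For several of these genes the other genes of their chromosome leaned the same way. The median of all genes on chromosome 19, which holds Ndufs8 and Ndufv1, was 0.18 in this comparison. It was -0.18 on chromosome 3, with Ndufc1, Atp5f1 and Ndufb5, and -0.12 on chromosome 10, with Atp5d and Ndufs7. With the chromosome median subtracted the differences were 0.49 for Ndufs8, 0.23 for Ndufv1, -0.40 for Ndufc1, -0.22 for Atp5f1 and -0.29 for Atp5d. Ndufaf7, on chromosome 17, was at 0.40 after it. The part of whole-chromosome differences between the lines in these results was not tested.

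The 7 Ndufaf genes, which help to build complex I without staying in it, lay on both sides of GFP-only macrophages. Of the 7, 5 had fitted values above GFP-only macrophages without overlap in GFP–TTP macrophages and 1 had them below, where 25.8% of all genes did not overlap. In the mutant 3 of 7 were above GFP-only macrophages without overlap (27.2% of all genes), and 1 was above and 2 below GFP–TTP macrophages (34.7% of all genes). Ndufaf1 was 0.14, Ndufaf2 0.32, Ndufaf5 0.10, Ndufaf6 0.35 and Ndufaf7 0.41, and the lower one, Ndufaf3, was -0.33. Only Ndufaf4, at -0.02, overlapped. Some had a narrow spread over replicate numbers, such as Ndufaf5 with 116, 115 and 112 in GFP-only and 124, 123 and 120.0 in GFP–TTP macrophages. Among the 37 subunits of complex I, 1 was above and 4 were below without overlap.

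**Figure D3:**
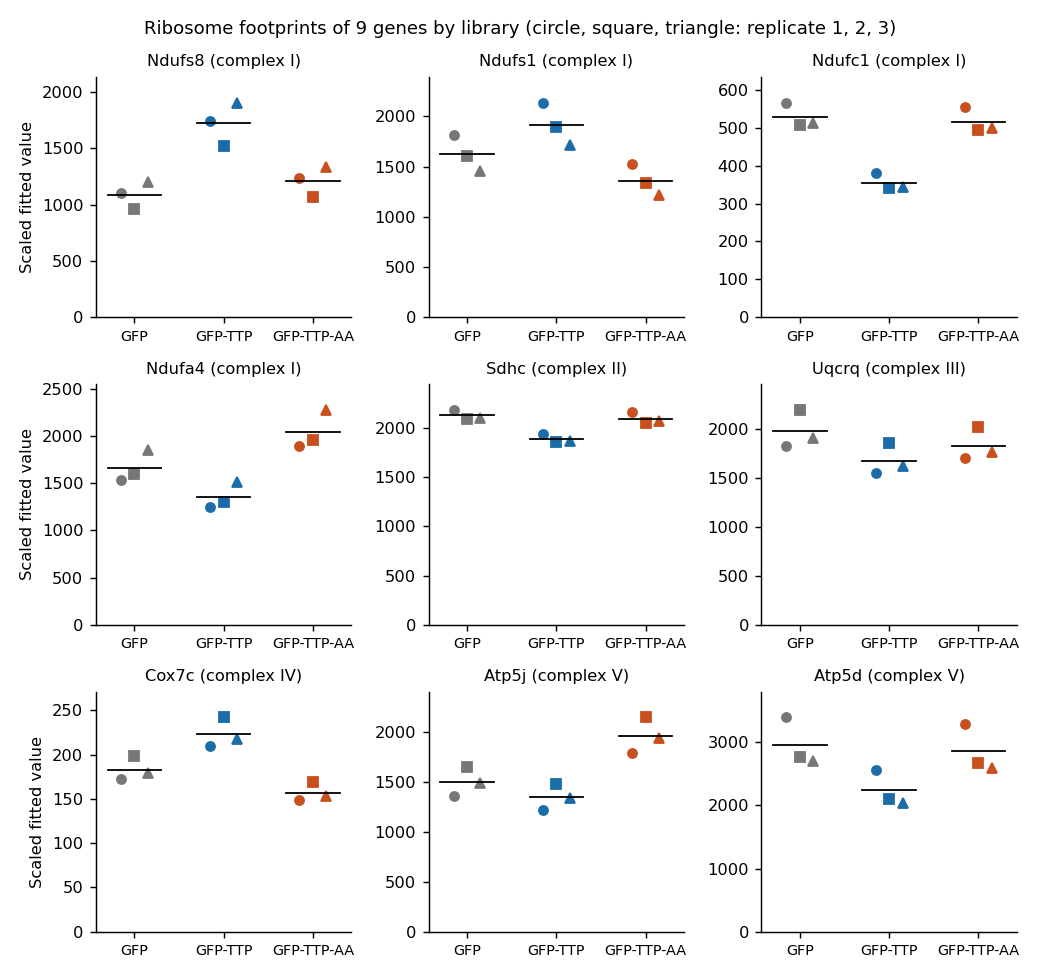
Scaled fitted values of 9 genes (linear axes from 0) in GFP, GFP–TTP and GFP–TTP-AA macrophages. Points are libraries with replicate number given by shape, bars are arithmetic means, and the pattern over replicate numbers repeats in every group because the values are fitted; Ndufs8 is highest and Ndufc1 lowest in GFP–TTP macrophages, and Ndufa4 and Atp5j are highest in GFP–TTP-AA macrophages.

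In GFP–TTP-AA macrophages the list stood slightly above GFP-only macrophages. The median log2 difference was 0.07 over the 86 genes and 0.00 over all genes, and 59 of the 86 were above 0. With the median of all genes in the same class of coding length subtracted, it was 0.02, and with the chromosome median subtracted as well, 47 of the 86 were above 0. Past 1.2-fold, 13 genes (15.1%) were higher, beside 13.3% of all genes, and 2 (2.33%) were lower, beside 13.7% of all genes. The groups did not overlap for 19 genes (22.1%), beside 27.2% of all genes. Complex V had the highest median (0.17), followed by complex IV (0.12), complex I (0.07), complex II (0.02) and complex III (0.01). In complex III all 9 genes lay between -0.11 and 0.08.

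In the ATP synthase, of the 10 genes for the membrane part and peripheral stalk 8 were above GFP-only macrophages. Among the 10, Atp5g1, Atp5g2 and Atp5g3 all encode subunit c. The 10 genes had a median of 0.18 and a range of -0.07 to 0.39. The 5 subunits of the catalytic head and its stalk had a median of -0.05 and a range of -0.13 to 0.17, so that both parts overlapped, and their difference was not tested. Against GFP–TTP macrophages the medians were 0.25 and 0.09, with 8 of 10 and 4 of 5 above 0. Atp5j, the coupling factor F6 of the peripheral stalk, had 1358, 1648 and 1491 in GFP-only, 1219, 1481 and 1339 in GFP–TTP and 1785, 2146 and 1944 in GFP–TTP-AA macrophages. All GFP–TTP-AA values lay above both other groups, and the difference from GFP-only macrophages was 0.39. Atp5a1 and Atp5b, the most abundant of all 86 by scaled value, were at -0.10 and -0.13. Over all complexes the largest difference was that of Ndufaf6, an assembly factor, with 0.40, from 89.6, 80.0 and 97.3 to 119, 105 and 128, followed by Atp5j and by Ndufa12, an accessory subunit of the peripheral arm, with 0.34 (441, 466 and 611 against 562, 589 and 772, with overlap). Of the other 10 past 1.2-fold, Atp5k and Atp5j2, membrane subunits e and f of the ATP synthase, Cox7b and Cox8a, membrane subunits of cytochrome c oxidase, and Ndufa4 did not overlap, with differences of 0.30, 0.29, 0.30, 0.28 and 0.30. Cox6c (0.31), Ndufb2 (0.27), Ndufa1 (0.27), Ndufv1 (0.27) and Atp5o (0.27) overlapped.

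Both genes past 1.2-fold on the lower side were accessory subunits of complex I. Ndufa6 was -0.37 (479, 389.5 and 506 against 372, 299.9 and 389.9, with overlap by a narrow margin) and Ndufa7 was -0.28 (561, 518 and 508 against 466, 426 and 418, without overlap). Next came Ndufs1, the largest iron-sulphur subunit, at -0.26 (1811, 1602 and 1459 against 1524, 1336 and 1218), which overlapped. Both Ndufa6 and Ndufa7 were also lower in GFP–TTP than in GFP-only macrophages, by -0.27 and -0.15.

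The comparison of the mutant with wild-type TTP had the most genes past 1.2-fold, and GFP–TTP-AA macrophages were higher in most of them. The median was 0.10 over the 86 genes and 0.00 over all genes, and 57 of the 86 were above 0. With the length-class median subtracted it was 0.0056, and with both the chromosome and the length-class median subtracted it was 0.03, with 46 of the 86 above 0 and 40 below. Past 1.2-fold, 20 genes (23.3%) were higher, beside 18.0% of all genes, and 4 (4.65%) were lower, beside 18.3% of all genes. The groups did not overlap for 30 genes (34.9%), beside 34.7% of all genes. The share without overlap was thus that of all genes, with 23 above and 7 below.

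Complex V had the highest median here too, at 0.24, with 14 of 17 genes above 0. Past 1.2-fold, 6 of its genes (35.3%) were higher, beside 18.0% of all genes, and none was lower, beside 18.3% of all genes. With both the chromosome and the length-class median subtracted its median was 0.16, with 11 genes above 0 and 6 below. Without subtraction, complex IV followed at 0.11 with 10 of 12 above 0, then complex II at 0.07, and complexes III and I at 0.06 each. Complex II had no gene past 1.2-fold in any comparison, and Sdha, Sdhb, Sdhc and Sdhd were at -0.19, 0.00, 0.15 and 0.19 here. As a share of the summed scaled values of the 92 genes, complex IV held 18.2% to 19.1% in GFP–TTP-AA libraries, above the 16.7% to 17.6% of GFP-only and the 16.9% to 17.8% of GFP–TTP libraries. The share of complex V, 38.6% to 41.2% over the 9 libraries, overlapped between the groups.

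Farthest above GFP–TTP macrophages stood Ndufa4 (chr6:11900292-11907497, minus strand). It had 1537, 1599 and 1858 in GFP-only, 1253, 1306 and 1516 in GFP–TTP and 1900.1, 1959 and 2279 in GFP–TTP-AA macrophages. No group overlapped another, and GFP–TTP-AA was 0.59 (1.51-fold) above GFP–TTP macrophages, the only one of the 86 past 1.5-fold in this comparison. Ndufb4, an accessory subunit of the membrane arm, was 0.57 higher (427, 332 and 451 against 638, 491 and 669). Ndufs7, the core subunit next to the ubiquinone site, was 0.54 higher (703, 561 and 640.2 against 1030.0, 813 and 930.4). For both, the GFP-only values lay between and overlapped with both other groups. Atp5j was also at 0.54, and Ndufc1, lowest in GFP–TTP macrophages, at 0.54. The other 15 past 1.2-fold were Ndufb5 (0.53), Atp5k (0.48), Ndufb2 (0.45), Ndufaf3 (0.44), Cox7b (0.43), Atp5f1 (0.39), Cox6a1 (0.35), Atp5d (0.35), Cox6b1 (0.33), Uqcr11 (0.32), Ndufa2 (0.31), Atp5s (0.30), Atp5j2 (0.30), Ndufa11 (0.29) and Ndufa12 (0.27). Of these, Ndufb5, Uqcr11, Ndufa2, Ndufa11 and Ndufa12 overlapped. Ndufb5, an accessory subunit of the membrane arm, had 464, 385 and 615 in GFP–TTP and 673, 553 and 886 in GFP–TTP-AA macrophages, so that its replicate numbers lay farther apart than its groups. Of the alternative isoforms, Cox6b1 was at 0.33, Cox6a1 at 0.35, Cox7a2 at 0.25, Cox8a at 0.11, Atp5g3 and Atp5g2 at 0.24 each, Cox4i1 at -0.06 and Atp5g1 at -0.09. The median of all genes in this comparison was 0.16 on chromosome 10, with Ndufs7, Atp5d, Uqcr11 and Ndufa12. It was 0.15 on chromosome 16, with Ndufb4 and Atp5j. With the chromosome median subtracted Ndufa12 was at 0.11, Ndufa4 at 0.55 and Ndufaf3 at 0.47. The part of whole-chromosome differences here was not tested.

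The 4 genes lower past 1.2-fold were Ndufaf7 (-0.51), Cox7c (-0.51), Ndufs8 (-0.51) and Ndufs1 (-0.49), and all 4 were without overlap. Cox7c, a short membrane subunit of complex IV, had 172, 198 and 179 in GFP-only, 210.1, 242 and 218 in GFP–TTP and 149, 169 and 153 in GFP–TTP-AA macrophages, and no group overlapped another. It was the only gene of complex IV past 1.2-fold on the lower side. Its level per kb, 1262, was the lowest among subunits of complex IV other than the tissue isoforms, and footprints shared with other copies of its sequence, if any, cannot be seen in these values. Core subunits of complex I divided, with Ndufs7 higher, Ndufs1 and Ndufs8 lower past 1.2-fold, and Ndufs3, Ndufv1 and Ndufv2 at 0.11, -0.14 and 0.19.

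**Figure D4:**
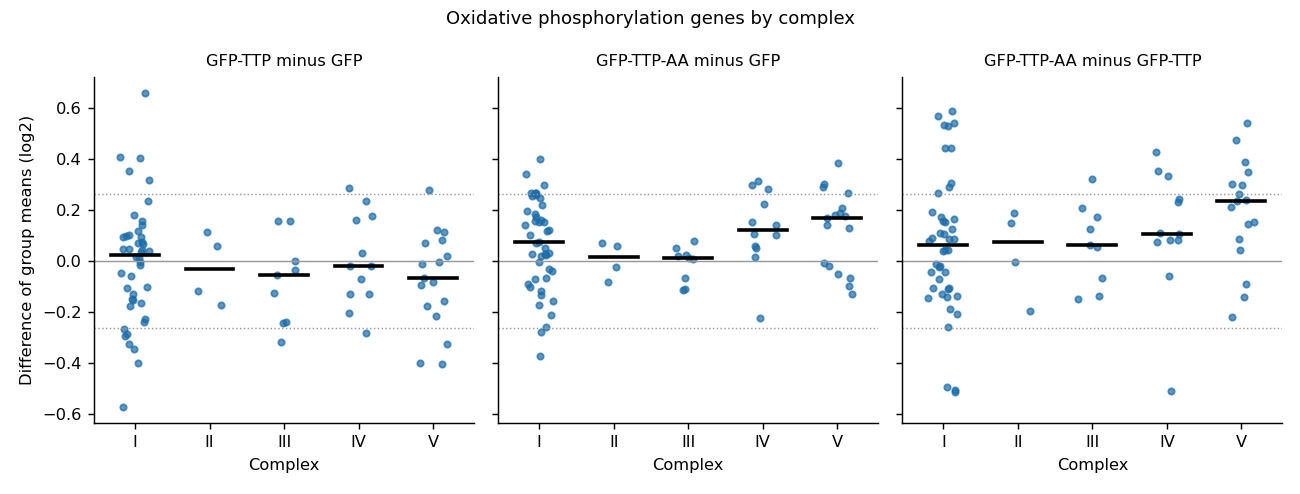
Log2 differences of group means of the 86 genes by complex in the 3 comparisons. Points are genes, bars are medians, dotted lines mark 1.2-fold; the medians lie near 0 in GFP–TTP minus GFP and reach 0.24 for complex V in GFP–TTP-AA minus GFP–TTP.

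Coding length went with these differences over all genes, and most oxidative phosphorylation genes are short. In GFP–TTP-AA against GFP–TTP macrophages the median of all genes was 0.15 where the coding sequence had up to 300 nt, 0.12 from there to 450 nt, 0.09 to 600 nt, 0.05 to 900 nt, 0.01 to 1500 nt, -0.06 to 3000 nt and -0.15 above. In the same classes the oxidative phosphorylation genes had 0.17 (21 genes), 0.15 (24), 0.15 (17), 0.15 (9), -0.14 (11) and -0.21 (4), with none in the longest class. Across genes Spearman's rho with coding length was -0.37 in the 86 genes and -0.25 in 9961 genes with a coding length, and genes in a library are not independent. With the median of each length class subtracted, the median of the 86 genes in this comparison was 0.01 in place of 0.10, and in GFP–TTP-AA against GFP it was 0.02 in place of 0.07. For complex V the values were 0.14 in place of 0.24 and 0.09 in place of 0.17, and complexes I, III and IV were at -0.02 each against GFP–TTP macrophages. Ndufa4 was at 0.44 in place of 0.59, Ndufs7 at 0.49 in place of 0.54 and Cox7c at -0.66 in place of -0.51. The part of coding length in the results was not tested.

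**Figure D5:**
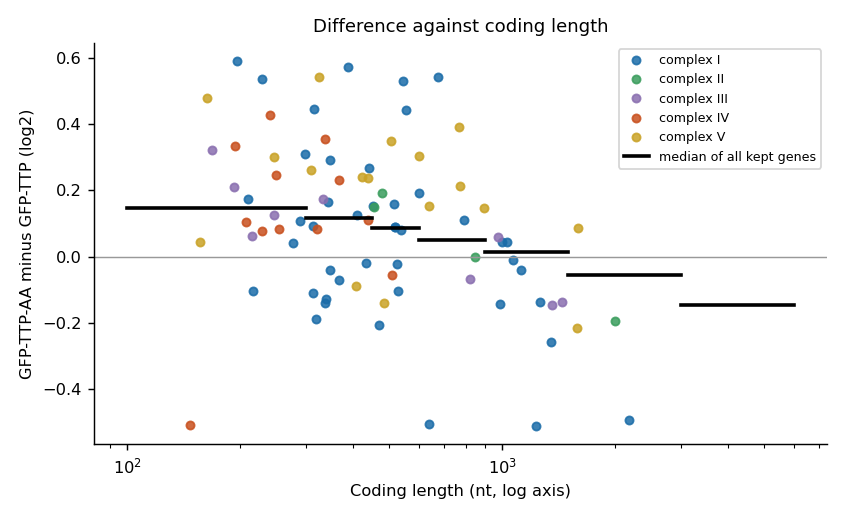
Log2 difference of GFP–TTP-AA from GFP–TTP macrophages against coding length (log axis) for the 86 genes, coloured by complex, with the medians of all genes in 7 length classes as black bars. The bars go from 0.15 for the shortest to -0.15 for the longest class, and the genes over 900 nt lie at or below 0.09.

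Genes that work beside the complexes were taken from lists, and those named from them were chosen after their values were seen. None of the 13 subunits encoded in mitochondrial DNA was analysed here. The 18 enzymes of the citric acid cycle and pyruvate dehydrogenase, which supply the electrons, leaned to the lower side in the mutant. In GFP–TTP-AA macrophages 16 of 18 were below GFP-only macrophages, with a median of -0.12. None was higher past 1.2-fold, beside 13.3% of all genes, and 2 (11.1%) were lower, beside 13.7% of all genes. Against GFP–TTP macrophages 16 of 18 were lower with a median of -0.26. None was higher past 1.2-fold, beside 18.0% of all genes, and 9 (50.0%) were lower, beside 18.3% of all genes. With the length class subtracted these medians were -0.13 and -0.25. In GFP–TTP against GFP-only macrophages the median was 0.12, with 13 of 18 above 0 and 1 past 1.2-fold in each direction (5.56%, beside 11.2% and 12.4% of all genes).

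Assembly factors outside the Nduf names divided. Of 32 listed, 30 were in the table, and against GFP–TTP the mutant had 5 of them (16.7%) higher and 6 (20.0%) lower past 1.2-fold, near the 18.0% and 18.3% of all genes, with a median of -0.08. Cox16 (0.56) and Cox14 (0.54), small membrane proteins for the assembly of cytochrome c oxidase, were among the higher, and Sco1 (-0.58), which delivers copper to it, among the lower. In GFP–TTP against GFP 5 were higher and 1 lower (all genes 11.2% and 12.4%), and in GFP–TTP-AA against GFP 5 were higher and 3 lower (all genes 13.3% and 13.7%), with medians of 0.02 each.

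Of 8 carriers and adaptors, 7 were above GFP-only macrophages in the mutant, with a median of 0.23 and 3 (37.5%) past 1.2-fold, beside 13.3% of all genes. Cycs, the cytochrome c that carries electrons from complex III to IV, was 0.43 with TTP and 0.47 with the mutant, and Usmg5, a small protein bound to the ATP synthase, was 0.48 with either. The medians of the 8 were 0.13 in GFP–TTP against GFP and 0.06 in GFP–TTP-AA against GFP–TTP. Past 1.2-fold were 2 and 1 of them, all higher (all genes 11.2% and 18.0%). With both the chromosome and the length-class median subtracted, the median in GFP–TTP-AA against GFP was 0.13. In GFP–TTP-AA against GFP–TTP it then turned to -0.03, with 3 above 0 and 5 below. Of 12 regulators of mitochondrial genes 11 passed the filter and all 11 were above GFP-only macrophages in the mutant, with a median of 0.14 and only Gabpb1 (0.37), a subunit of a transcription factor of nuclear genes for mitochondria, past 1.2-fold (9.09%, beside 13.3% of all genes). In GFP–TTP against GFP the median was 0.14 as well with 2 higher (all genes 11.2%), and in GFP–TTP-AA against GFP–TTP it was 0.06 with 1 in each direction (all genes 18.0% and 18.3%). With both medians subtracted, the regulators had a median of 0.07 in GFP–TTP-AA against GFP, with 10 above 0 and 1 below. Ppargc1a, the coactivator of mitochondrial biogenesis, was not above the filter, with 0.140 on average.

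The mitochondrial ribosomal proteins, which are nuclear-encoded and imported as well, were evenly divided past 1.2-fold. Against GFP–TTP the mutant had 10 of 76 (13.2%) higher and 10 lower past 1.2-fold, below the 18.0% and 18.3% of all genes, with a median of 0.01. The 77 cytosolic ribosomal proteins that passed the filter, which are as short and more abundant (4544 per kb against 699.8 for the mitochondrial ones), had a median of -0.05 with 7 (9.09%) in each direction. With both the chromosome and the length-class median subtracted, both lists leaned to the lower side in this comparison. The mitochondrial ones had a median of -0.06 (31 above 0, 45 below) and the cytosolic ones -0.13 (21 above 0, 56 below). Against GFP-only macrophages the 2 medians without subtraction were 0.06 and 0.03 in the mutant, and 0.04 and 0.06 with TTP. In the mutant they were 0.02 and -0.03 with both subtracted. Whether the oxidative phosphorylation genes differed from either list was not tested.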

How the data were processed

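Ribosome-protected fragments of 9 samples (3 groups of 3, grouped by the labelled construct) were isolated after nuclease digestion and sequenced as single-end reads. Per the methods and processing notes, the authors trimmed reads with Trim Galore, mapped them to GRCm38 (mm10) with TopHat2 2.0.12, which kept up to 2 alignments per read, counted them with HTSeq and modelled the counts with DESeq2 1.6.3, with the library date as a factor. Another version of TopHat is named in the paper itself. The deposited signal values were fitted by the authors with that model and are not counts. Means of normalized counts, also deposited by the authors as a signal column, were used only to compare levels (fitted over deposited mean 0.993 to 1.01 over the 86 genes). The authors' own fold changes, standard errors and p-values stand in 3 further tables and were not used.

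Values were divided by median-of-ratios scaling factors (0.416 to 2.14) in Python 3.11.15 with numpy 2.4.6, pandas 2.3.3 and scipy 1.17.1, and plotted with matplotlib 3.10.9. Group means were compared on the log2 scale with no pseudocount, over 10103 genes with a mean of at least 10, and called past 1.2-fold. A test with limma was planned for observed values and could not be made, since the fitted values have no residual. The computation was tested on simulated data. Counting error and depth are unknown, since the totals are sums of fitted values. Coding lengths (the median over coding transcripts) and 3′UTRs come from GENCODE vM21. Genes named with values were the 4 of complex II, the highest 3 per kb in each other complex, the 3 highest and 3 lowest differences in each comparison, isoforms and non-subunits, and others were named after their values were seen. Members and lists were chosen with earlier results of these data known. Alternatives were 3 other scalings, 2 filters, 2 pseudocounts, 2 fold thresholds, other lengths, leaving out each replicate number, and subtraction of chromosome medians. Subtraction of length-class medians, of both, and subunits alone were added after the data were seen.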

Additional observations from a re-analysis of the deposited data

How the results depend on the processing

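No paired analysis was possible because the deposited values hold the replicate-number term exactly and leave no residual. For the same reason leaving out a replicate number alters only the scaling. Other scalings, filters on low values, pseudocounts and leaving out a replicate number kept the direction of the list's median in all 3 comparisons, and other scalings shifted the median of all genes by at most 0.02 on the log2 scale. The counts of genes past 1.2-fold were 19 in GFP–TTP against GFP, 15 in GFP–TTP-AA against GFP and 24 in GFP–TTP-AA against GFP–TTP. At 1.1-fold they were 41, 41 and 50, and at 1.5-fold 1, 0 and 1. With the length-class median subtracted, the median over the list was 0.024, 0.018 and 0.0056 in the same order, the first with its sign turned, and the count in GFP–TTP-AA against GFP was 7. With both chromosome and length-class medians subtracted, the median was 0.026 in GFP–TTP-AA against GFP and 0.031 in GFP–TTP-AA against GFP–TTP, and the counts were 12 in GFP–TTP against GFP and 6 in GFP–TTP-AA against GFP. With the chromosome median alone subtracted, the median in GFP–TTP-AA against GFP–TTP was 0.14. Of the complexes, I in GFP–TTP against GFP turned to -0.0049 with the chromosome median subtracted. In GFP–TTP-AA against GFP–TTP, I, III and IV turned to -0.0153, -0.0209 and -0.0193 with the length class subtracted, and I to -0.0157 and II to -0.0045 with both. In GFP–TTP-AA against GFP, III turned to -0.065 with both, -0.0070 with the chromosome and -0.038 with the length class, and II to -0.0013 with the length class and -0.021 with both. In GFP–TTP against GFP, II and IV turned to 0.0154 and 0.0148 with the length class, and the list to 0.0036 with both. Complex V kept its direction in all settings. The level per kb of complexes I and V was 1741 and 4865 over subunits alone, and that of complex I was 1369 with the longest coding sequence. Per kb of exonic length it was 934, 925, 1776, 2639.6 and 1999.7 from I to V, with complex IV highest in all settings. The cause of these differences was not tested. Fitted values hide depth and the spread within groups, so that how firmly a single gene's difference stands cannot be read from them.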
